A study of Mus musculus with 2 samples.

Results

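The S100 proteins are small calcium-binding proteins, and 8 of their genes, S100a1, S100a4, S100a6, S100a8, S100a9, S100a10, S100a11 and S100a13, were followed in RNA sequencing of mouse tumor cells. The genes were taken by their symbols and not by their values, 8 of 22886 genes in the files, and each had 1 row in each library. The set was, however, drawn up with earlier results of these data known. The series holds 2 libraries of polyA RNA, 1 from a vehicle injection and 1 from a clodronate injection. Clodronate, usually given in liposomes, kills the phagocytes that take it up. Both came from wild type C57BL/6 mice, with no age given, that carried a subcutaneous tumor of LLC, a mouse Lewis lung carcinoma line, and the series design describes aerobic tumor cells sorted by FACS. The number of mice behind a library, the sort markers, the dose and the time of injection are not given in the sources used here, and a growth protocol in the labels names another cell, EML, which goes against the tissue given for the samples. With 1 library per condition there was no replicate, no error and no test, so every value below describes these libraries, and an effect of the injection, a difference between mice and a difference between preparations cannot be told apart. In bulk RNA, fewer cells of a type and less RNA per cell cannot be told apart either.

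S100 proteins carry calcium-binding loops of the EF-hand type and mostly work as dimers, which open a binding surface for other proteins when calcium rises. Inside cells they act on the cytoskeleton, on annexins and on the membrane. Some are also released, and S100A8 with S100A9 form calprotectin, an alarm signal of neutrophils and monocytes that is read by TLR4 and RAGE. S100A10 is the exception of the family, since it no longer binds calcium and stays in its active form bound to annexin A2.

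The labels call the cells tumor cells, and marker genes were set against that name. Of 12 macrophage markers all 12 had at least 10 RPKM in both libraries, RPKM being read numbers divided by transcript length and library size, with Lyz2 at 10534 RPKM with vehicle and 11189 RPKM with clodronate. Of 8 epithelial markers 5 were at 0 in both, and Cdh1 was the highest with 6.14 and 6.44 RPKM. Epithelial markers were therefore low or listed at 0, and macrophage markers high, in both libraries. The lists of dendritic, T and NK, and endothelial markers summed to 27.9, 13.5 and 3.34 RPKM with vehicle and to 38.4, 20.8 and 8.31 RPKM with clodronate.

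All 8 S100 genes of the set lie on mouse chromosome 3. In the coordinates of the files, which the submitters' processing notes give as build mm9, S100a1 runs from 90314956 to 90318252 and S100a13 from 90318357 to 90328503, with 104 bases between them. S100a4 (90407692 to 90409967) and S100a6 (90416816 to 90418336) follow with S100a5 between them, then S100a8 (90472993 to 90473956) and S100a9 (90496555 to 90499613). S100a11 (93324418 to 93330210) and S100a10 (93359039 to 93368567) stand 2825 kb further on. The interval between S100a9 and S100a11 holds 54 loci of the files, many of them genes of the skin barrier, and 52 of these were listed at 0 in both libraries. Of the 15 epidermal genes of a list that were found in the files (among them Lor, Ivl and Sprr1b), all 15 were at 0 in both. For scale, 13103 of all 22886 genes were above 0 in the vehicle and 13728 in the clodronate library. These zeros are given as listed and not as a lack of RNA. Of the 68 loci from S100a1 to S100a10, 7 had at least 10 RPKM in both libraries, and all 7 were S100 genes of the set. Because the set was drawn up with earlier results of these data known, this count may follow from that choice. No locus of the set overlapped another locus of the files.

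**Figure D1:**
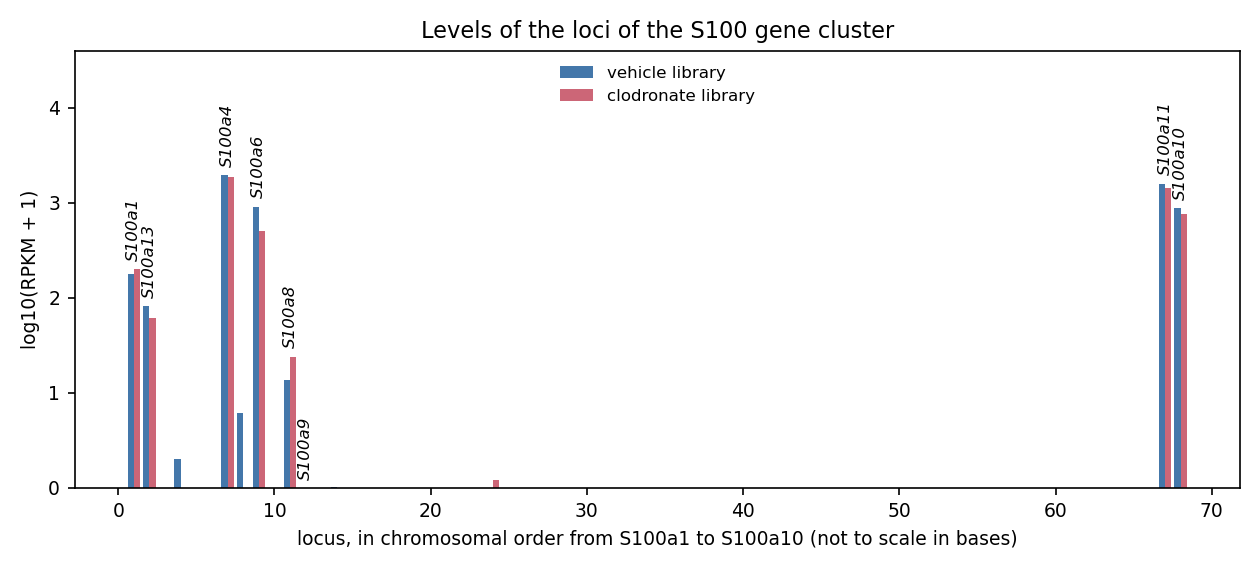
Level of each of the 68 loci from S100a1 to S100a10 in chromosomal order, as log10(RPKM + 1) on the vertical axis, with a blue bar for the vehicle and a red bar for the clodronate library. The bars stand at both ends, at the S100 genes, and of the 54 loci between S100a9 and S100a11 only 2 are above 0.

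The sequences upstream of 4 of the genes are shown because they hold the highest level (S100a4), the lowest and the highest ratio (S100a6 and S100a8) and the partner of S100a8 that was listed at 0 (S100a9). They come from RefSeq promoters on build GRCm38.p6, another build than that of the files, were found for 7 of the 8 genes and are printed 5′ to 3′ on the strand of the gene up to the first annotated exon of GENCODE M21. Capitals mark matches on either strand to the TATA box TATAAA, to TGANTCA (AP-1), to TTGCNNAA (C/EBP) or to GAGGAAG (PU.1, a factor of myeloid cells), which no other searched motif overlapped.
S100a4, chr3:90603520-90603769, strand +: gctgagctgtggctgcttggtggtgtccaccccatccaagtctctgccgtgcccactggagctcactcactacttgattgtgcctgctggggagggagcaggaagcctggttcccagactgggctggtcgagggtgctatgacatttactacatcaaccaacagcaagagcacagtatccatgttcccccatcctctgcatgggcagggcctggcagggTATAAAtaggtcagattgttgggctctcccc
S100a6, chr3:90612644-90612881, strand +: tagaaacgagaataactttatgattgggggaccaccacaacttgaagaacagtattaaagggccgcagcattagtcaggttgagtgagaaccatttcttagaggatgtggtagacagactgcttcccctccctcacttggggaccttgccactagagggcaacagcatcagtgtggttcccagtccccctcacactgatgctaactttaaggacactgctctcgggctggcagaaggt
S100a8, chr3:90668821-90668977, strand +: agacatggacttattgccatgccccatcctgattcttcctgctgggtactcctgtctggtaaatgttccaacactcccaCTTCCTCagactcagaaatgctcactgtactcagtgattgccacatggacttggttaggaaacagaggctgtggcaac
S100a9, chr3:90695722-90695971, strand -: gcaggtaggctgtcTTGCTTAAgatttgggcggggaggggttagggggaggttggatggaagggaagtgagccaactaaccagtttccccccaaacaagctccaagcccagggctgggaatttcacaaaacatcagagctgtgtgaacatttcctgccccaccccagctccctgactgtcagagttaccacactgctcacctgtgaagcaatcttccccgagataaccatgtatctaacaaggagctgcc

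In the 250 bases before the RefSeq start, TATAAA was present for S100a4, beginning 31 bases before the start, and for S100a8, beginning 30 bases before the start in a stretch that is not printed. It is found in 12.4% of all 32851 promoters of this length. GAGGAAG was present for S100a8, on the opposite strand (10.6% of all promoters), and TTGCNNAA for S100a9 (9.56%). TGANTCA occurred in S100a11 only among the genes with a promoter, in 2 copies, and in 6.75% of all promoters. S100a6 held none of the 4. These are matches of letters and not sites of binding.

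The most abundant genes of the set were S100a4, S100a11, S100a6 and S100a10, which made up 95.2% of the summed RPKM of the 8 genes in the vehicle and 94.2% in the clodronate library. All 8 genes together had 5604 RPKM in the vehicle library, 0.932% of all RPKM, and 4821 RPKM in the clodronate library, 0.809% of all RPKM. The order of levels was S100a4, S100a11, S100a6, S100a10, S100a1, S100a13, S100a8 in the vehicle library. In the clodronate library S100a6 and S100a10 changed places and the rest of the order was the same.

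**Figure D2:**
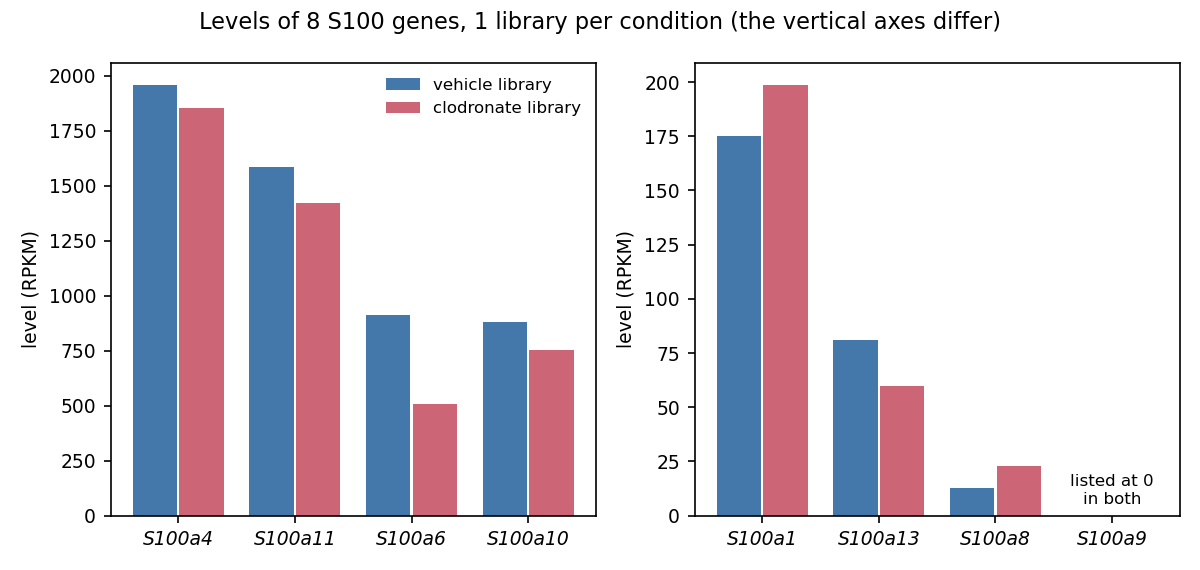
RPKM of each S100 gene in the vehicle (blue) and the clodronate (red) library, 1 library per bar and therefore no error bar, with separate vertical axes for the 4 abundant and the 4 less abundant genes. S100a6 shows the widest gap of the abundant genes, 912 against 508 RPKM, and S100a9 has no bar.

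S100A4, also called metastasin, binds non-muscle myosin and is made by macrophages, fibroblasts and motile tumor cells. S100a4 had 1960 RPKM with vehicle and 1854 RPKM with clodronate, ranks 42 and 41 of all genes. On the scale used for all ratios, log2 of clodronate RPKM + 1 over vehicle RPKM + 1, this is -0.08. The levels were thus close together, and 43.1% of the 10982 genes whose mean reached 1 RPKM, the genes kept, had a lower ratio.

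S100A11 interacts with annexin A1 and takes part in membrane repair. S100a11 had 1584 RPKM with vehicle and 1423 RPKM with clodronate, a log2 ratio of -0.15, and it stayed next below S100a4 within the set in both. S100a10, whose protein holds annexin A2 and plasminogen at the cell surface, had 880 and 753 RPKM, a log2 ratio of -0.22. Both genes were slightly lower in the clodronate library.

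S100A6, calcyclin, is a protein of proliferating and migrating cells that binds CACYBP. S100a6 had 912 RPKM with vehicle and 508 RPKM with clodronate, 55.7% of the vehicle level and a log2 ratio of -0.84. It was the lowest ratio of the set, and 9.29% of all genes kept had a lower one. Of the 1615 genes whose mean reached 50 RPKM, where low values add less noise, 92 genes (5.70%) had a ratio as low or lower. The distance to its neighbour S100a4 widened with it, from 2.15 times the level of S100a6 in the vehicle to 3.65 times in the clodronate library. S100a5, which lies 1113 bases before S100a6, had 5.07 RPKM in the vehicle library and was listed at 0 in the clodronate library.

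S100A1 is best known from muscle, where it acts on calcium pumps and release channels, and S100A13 helps the release of proteins that lack a signal peptide, such as FGF1 and interleukin-1α. S100a1 had 175 RPKM with vehicle and 199 RPKM with clodronate, a log2 ratio of 0.18. S100a13, which starts on the other strand next to it, had 81.0 and 59.6 RPKM, a log2 ratio of -0.44. The level of S100a1 was 2.16 times that of S100a13 in the vehicle and 3.34 times in the clodronate library. Strand was not stated for the counting, and the 2 loci do not overlap.

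S100A8 and S100A9 are the calprotectin subunits, and myeloid cells usually make them together. S100a8 had 12.7 RPKM with vehicle and 23.1 RPKM with clodronate, 1.82-fold higher, a log2 ratio of 0.81. It was the highest ratio of the set, and 89.6% of all genes kept had a lower one. The level of S100a8 was low, since 45.8% of the genes kept stood above it in the vehicle and 30.1% in the clodronate library. Taking what 1 read is worth on long transcripts, these values rest on at most about 79 and 121 reads. S100a9, 22598 bases away, was listed at 0 in both libraries, so the partner genes were not recorded together in either. An exact 0 can be a failed estimate in files of this kind. Outside small RNA genes, 21 genes were at 0 in the vehicle library with at least 5 RPKM in the other, and 15 genes the reverse. These counts cannot tell a failed estimate from a difference between the libraries, and S100a9, at 0 in both, is not among them. Whether the 0 of S100a9 is a failed estimate was not tested, so it is given as listed and not as a lack of RNA.

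Neutrophils are the richest source of S100a8. Of 12 neutrophil markers 11 were found, and 7 of these (Mpo, Elane, Camp, Ngp, Ltf, Lcn2 and Retnlg) were listed at 0 in both libraries. The summed level of the list was 39.1 RPKM with vehicle and 29.8 RPKM with clodronate, led by Csf3r, the G-CSF receptor, with 26.4 and 19.3 RPKM. The sum rests on 4 genes, of which Csf3r, Cxcr2 and Mmp8 were lower and Mmp9 higher with clodronate, and its part in the values of S100a8 was not tested. Of 10 markers of recruited monocytes 7 were higher with clodronate, such as Plac8 with 45.4 and 91.8 RPKM and F13a1 with 132 and 247 RPKM, while Ccr2 (48.5 and 37.8 RPKM) and Chil3 (36.4 and 14.8 RPKM) were lower. The summed level of that list was 2206 RPKM with vehicle and 3213 RPKM with clodronate, most of it Fn1, and its part was not tested either.

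Fibroblasts and motile cells also make S100a4 and S100a6. Of 10 fibroblast markers 8 passed the minimum of 1 RPKM and 6 of these were lower in the clodronate library, with a sum over all 10 of 158 and 78.5 RPKM. Most of the sum was Dcn, with 77.3 and 28.4 RPKM, and Col3a1, with 62.1 and 34.4 RPKM. The other 2 genes that passed were higher, Col1a1 with 2.32 and 5.40 RPKM and Acta2 with 0.138 and 2.03 RPKM. S100a6 was lower, as was the sum of this list, while S100a4 differed little. The 12 macrophage markers had a median log2 ratio of 0.03, with 7 higher and 5 lower. The part of either cell type in the S100 values was not tested.

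Across the set, 5 of the 7 genes above 0 were lower and 2 were higher in the clodronate library. None of the 8 differed at least 3-fold in either direction, against 2.86% of the 10982 genes kept that were at least 3-fold higher and 2.32% that were at least 3-fold lower. None differed at least 2-fold either, against 6.95% and 6.77%. With shares this small, a count of 0 among 7 genes says nothing particular about the set. The median log2 ratio of the 7 genes was -0.15, and that of all genes kept was 0.02, with 48.4% of them lower in the clodronate library.

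**Figure D3:**
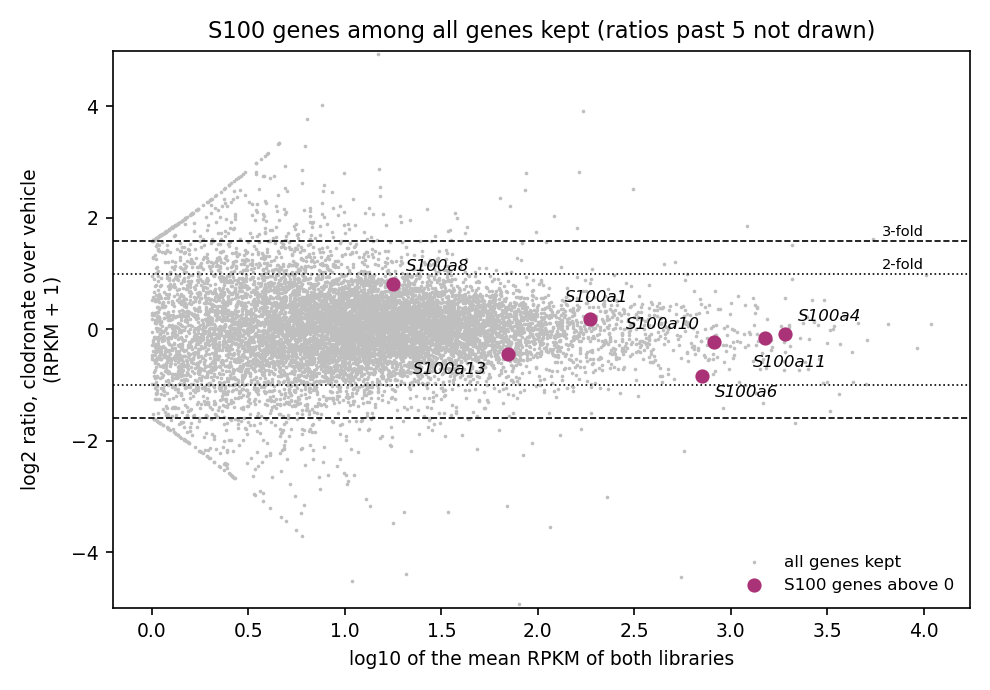
Log2 ratio, clodronate over vehicle (RPKM + 1), against log10 of the mean RPKM, with all genes kept in grey and the 7 S100 genes above 0 in purple; dotted lines mark 2-fold and dashed lines 3-fold. All 7 S100 genes lie inside the dotted lines, with S100a8 at 0.81 and S100a6 at -0.84.

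S100 transcripts are short, and transcript length moved with the ratio. All 7 genes above 0 belonged to the shortest 10% of the genes kept, with transcripts of at most 1141 nt, and these 1085 genes had a median log2 ratio of -0.18. When the median ratio of genes of like GC content, and then of like length, was subtracted, S100a4 went from -0.08 to 0.19, S100a11 from -0.15 to 0.11 and S100a10 from -0.22 to 0.03, and the median of the set went from -0.15 to 0.11. The slightly lower values of these 3 genes therefore depend on the correction. S100a6 remained lower at -0.70 and S100a13 at -0.30, S100a1 remained higher at 0.32, and S100a8 came to 1.19, past 2-fold. Because all 7 genes lay in the same shortest 10%, the length step moved their ratios by the same amount. Differences in how far the 7 ratios moved therefore come from the GC step, and S100a8 had the lowest GC content of them (44.9%).

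**Figure D4:**
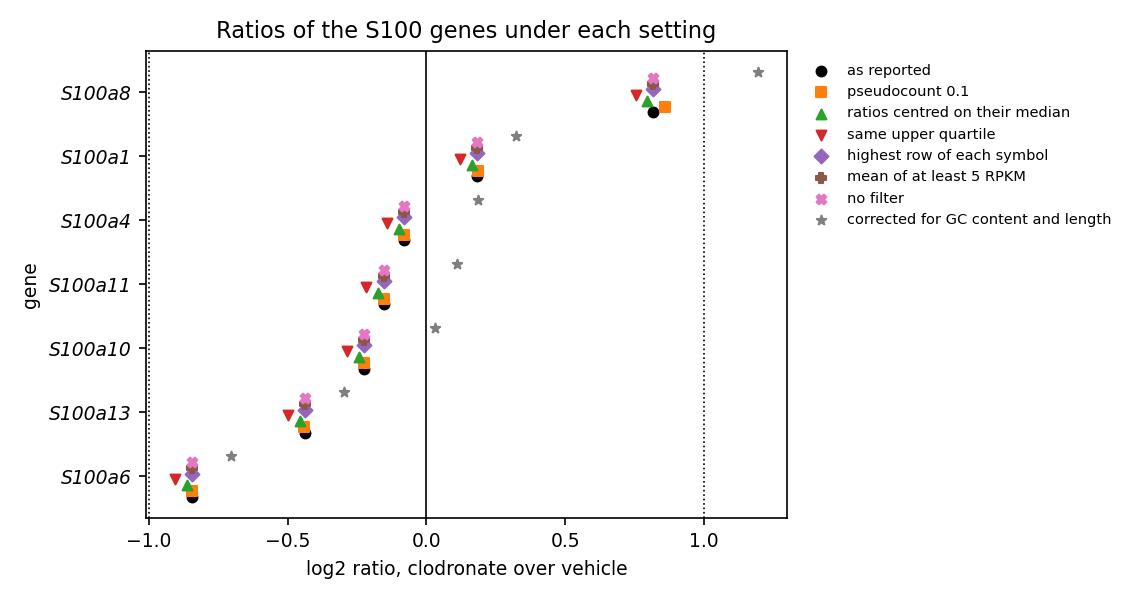
Log2 ratio of each S100 gene of the set above 0 (horizontal axis, with dotted lines at 2-fold) as reported and under 7 other settings, 1 symbol per setting. The grey stars, corrected for GC content and length, stand to the right of the other symbols in every gene and cross 0 for S100a4, S100a11 and S100a10.

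The other S100 genes were at most 5.07 RPKM or listed at 0. Of 10 further family members 9 were found, 6 of them (S100a2, S100a3, S100a7a, S100a14, S100g and S100z) stood at 0 in both libraries, while S100a5, S100a16 and S100b had a value in at least 1 library. These zeros too are given as listed and not as a lack of RNA. S100b, a marker of glial and some dendritic cells, had 2.99 RPKM with vehicle and 1.04 RPKM with clodronate. S100a16 had 1.02 RPKM in the vehicle library and was listed at 0 in the clodronate library. Only 2 of the list, S100a5 and S100b, passed the minimum of 1 RPKM, and both were lower with clodronate (median log2 ratio -1.79). S100a5, with a log2 ratio of -2.60, was the only one past 3-fold, against 2.32% of all genes kept. Its vehicle value rests on at most about 28 reads, and its value with clodronate is a listed 0.

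All 8 listed receptor genes of released S100A8 and S100A9 were above 0 in both libraries, and 5 of them had at least 10 RPKM in both. Mcam was the lowest, with 1.35 RPKM with vehicle and 0.827 RPKM with clodronate. Tlr4, the receptor through which calprotectin signals, had 15.1 RPKM with vehicle and 14.2 RPKM with clodronate, and Ager, the gene of RAGE, had 3.15 and 1.49 RPKM. Cd33, a sialic acid receptor of myeloid cells whose human form can bind S100A9, had 172 and 95.9 RPKM, a log2 ratio of -0.84. Of the 8 receptor genes 4 were higher and 4 lower, and their median log2 ratio was 0.02. None was past 2-fold, against 6.95% of all genes kept at least 2-fold higher and 6.77% lower.

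Annexins, the membrane-binding partners of S100A10, S100A11 and S100A6, were mostly a little higher. Of 12 annexin genes 10 passed the minimum of 1 RPKM, 8 of them higher and 2 lower with clodronate (median log2 ratio 0.26). Anxa2, the partner of S100A10, had 899 RPKM with vehicle and 1088 RPKM with clodronate, a log2 ratio of 0.28. S100a10 had -0.22 as reported and 0.03 with the correction for GC content and length. Corrected ratios of the annexins are not given here, so only the ratios as reported can be set side by side. Anxa1, the partner of S100A11, had 246 and 263 RPKM. Anxa11, which can bind S100A6, had 53.9 and 75.6 RPKM and was higher where S100a6 was lower. The only annexin past 2-fold, and past 3-fold, was Anxa9 with 1.85 and 8.08 RPKM. Among all genes kept, 6.95% were at least 2-fold and 2.86% at least 3-fold higher.

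Of 16 other binding partners and linked genes 12 passed the minimum, 9 higher and 3 lower, with a median log2 ratio of 0.09. Myh9, the heavy chain of the myosin that S100A4 binds, had 211 RPKM with vehicle and 300 RPKM with clodronate, and Cacybp, the partner of S100A6, had a log2 ratio of 0.09. Ahnak, a large scaffold that joins S100A10 and annexin A2, had 170 and 181 RPKM. Plau, the urokinase that activates plasminogen, was the only one past 3-fold, with 19.0 and 65.2 RPKM. Of all genes kept, 2.86% were at least 3-fold higher. The urokinase receptor gene Plaur had 333 and 283 RPKM. Il1a, a cargo of S100A13, had 14.1 and 14.8 RPKM, and Fgf1 stayed below 1 RPKM in both.

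Other EF-hand proteins gave a comparison within the same protein fold. All 16 of that list passed the minimum, 10 higher and 6 lower, with a median log2 ratio of 0.11. Lcp1, the actin-bundling plastin of leukocytes, had 524 RPKM with vehicle and 614 RPKM with clodronate, and Sri, the gene of sorcin, had 59.0 and 30.4 RPKM, a log2 ratio of -0.93 next to -0.84 for S100a6. Rcn1 was the only one past 2-fold, with 3.40 and 0.808 RPKM, against 6.77% of all genes kept that were at least 2-fold lower.

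**Figure D5:**
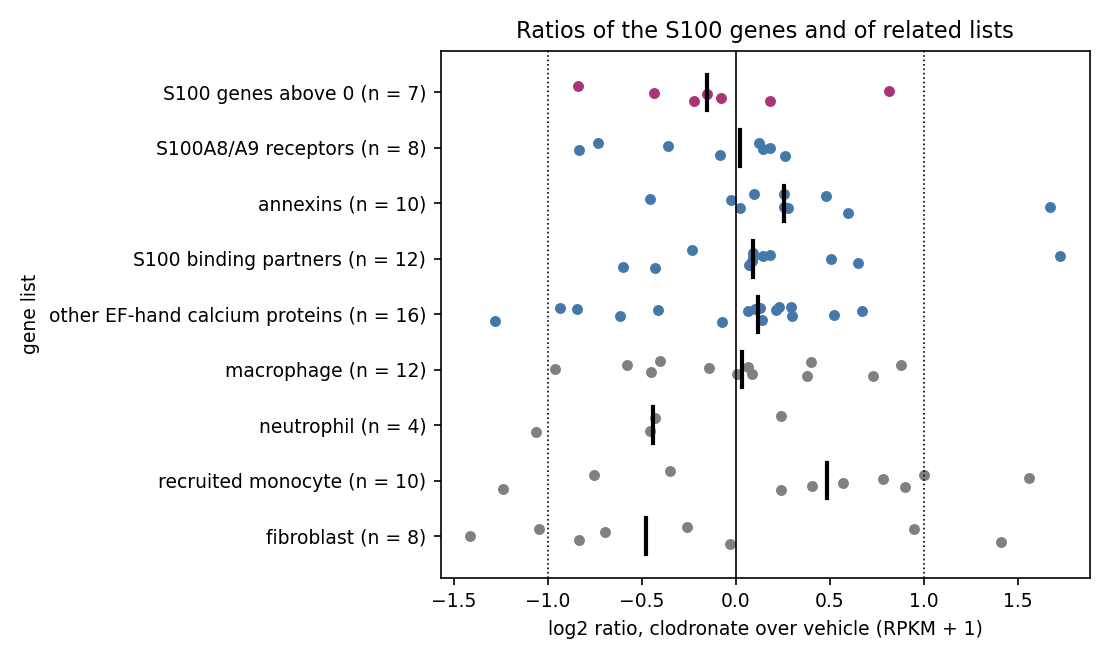
Log2 ratio of every gene kept in the S100 set (purple), 4 lists of partners and EF-hand proteins (blue) and 4 cell type lists (grey), with a black bar at each median and dotted lines at 2-fold. The S100 genes span -0.84 to 0.81, inside the range of the other EF-hand proteins on the lower side. Their median is at -0.15 as drawn, without the correction for GC content and length that takes it to 0.11.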

How the data were processed

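The authors deposited RPKM values for 23170 gene loci per library. The submitters' processing notes name CASAVA 1.8.2, TopHat2 2.0.9, Bowtie 0.12.9, Cufflinks 2.2.1, Cuffdiff and the build mm9, without their roles. The annotation release and read filters are not given in the sources used here. The paper under whose title the series is deposited describes no tumor experiment.

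Rows of a symbol were summed, and 26 loci whose symbol had become a number were named by their accession. Ratios are log2 of RPKM + 1, which understates changes of low genes. Genes whose mean over both libraries reached 1 RPKM were kept (10982). Locus starts were counted from 0 (7611 single-row genes had the length of RefSeq genes that way, 483 the other way) and are printed from 1.

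Read totals are not in the files. Of 1160 loci below 1 RPKM in both libraries, 72 had a vehicle to clodronate ratio within 0.1% of 0.8162, which would make the vehicle library 1.23 times as deep. On transcripts of at least 2000 nt, RPKM times length in kb was most often near 0.0775 and 0.0925, taken as what 1 read is worth. This is an estimate, and no interval was derived from it.

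GC content and length came from GENCODE M21 transcripts (98.7% of the genes kept, 10 bins each). Only the calls past a fold and the correction by bins were tested on simulated data. The planted changes were larger than those of the S100 genes of the set, so that test cannot show how well differences of their size are recovered. The rule allowed every gene of the set and of the lists to be named. S100p, Flg, Ly6g and Trac of the lists matched no symbol and were not analysed here, and the values of 1 list gene are not reported here. The promoters and motifs were chosen after values were seen, and the genes and lists with earlier results of these data known. Python 3.11.15, numpy 2.4.6, pandas 2.3.3 and matplotlib 3.10.9 were used.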

Additional observations from a re-analysis of the deposited data

How the results depend on the processing

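The alternatives were a pseudocount of 0.1, ratios centred on their median, the same upper quartile, the highest row of each symbol, a minimum mean of 5 RPKM, no filter, the GC and length correction and a 2-fold threshold. A minimum mean of 50 RPKM was chosen after seeing the data. Without the correction, the log2 ratio of no S100 gene of the set changed sign. Corrected for GC content and length, S100a4 (0.19), S100a10 (0.032), S100a11 (0.11) and the median of the set (0.11) turned positive. S100a6 lay between -0.91 and -0.70 and S100a8 between 0.76 and 1.19 over all settings, and no S100 gene of the set reached 3-fold in any. The genes at least 3-fold higher and lower, 314 and 255 as reported, were 532 and 480 with a pseudocount of 0.1, 127 and 101 above a minimum mean of 5 RPKM and 47 and 18 above one of 50 RPKM, and 763 and 744 genes passed 2-fold. Each of these settings by its construction admits more or fewer genes. The highest row could not change the ratio of an S100 gene of the set, since each has 1 row. Nor could the minimum mean of 5 RPKM or the absence of a filter. The lowest mean of the genes above 0 was 17.9 RPKM (S100a8), and a filter does not enter a gene's ratio. No paired analysis was possible because there was 1 library per condition. The precision of low values such as S100a8 is limited by a depth that the files do not give.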
